A study of Mus with 4 samples.

Results

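Non-myelinating Schwann-like glia of the mouse dorsal root ganglion (DRG) were taken as the barcodes that held RNA of Scn7a and not the RNA that marks the neighbouring glia. A barcode was a member when it held more than 500 genes and under 20% mitochondrial unique molecular identifiers (UMIs), at least 2 Scn7a UMIs, at least 3 UMIs of Scn7a and Cdh19 together, under 5 Fabp7 UMIs per 10000 UMIs, under 3 UMIs of Prx, Ncmap and Cldn19 together, under 5 Dcn UMIs and under 8000 UMIs in all. These limits kept 905 of 35113 barcodes that passed the first filter on genes and mitochondrial RNA. The members numbered 259 in CON replicate 1, 46 in CON replicate 2, 311 in CCI replicate 1 and 289 in CCI replicate 2, and they are called Scn7a+ cells here. The limits left out satellite glia by Fabp7, myelinating Schwann cells by Prx, Ncmap and Cldn19, fibroblasts by Dcn, and most neurons by the upper limit on UMIs. Levels of these 7 genes therefore describe the choice of cells and are not findings.

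The tissue was L4 and L5 DRG from wild-type male C57BL/6J mice, 8 weeks old. The CON group was naive, and the CCI group was taken 3 d after chronic constriction injury, a loose tying of the sciatic nerve that serves as a model of neuropathic pain. Each group had 2 libraries of the 10x Genomics 3' kit, and no source used here gives the number of mice pooled in a library, so that p-values measure the spread between libraries. CON mice were naive and had no sham surgery, so the ligature and the surgery itself cannot be told apart. The sample labels name the cell type as neuron, whereas the suspension held all cell types of the ganglion, and they name collagenase II and frozen cells where the methods of the study describe Liberase and papain.

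Non-myelinating Schwann cells, also called Remak cells, wrap many small axons of sensory and autonomic neurons in separate troughs of their membrane without forming myelin. They share a neural crest origin and the transcription factor Sox10 with satellite glia, which enwrap the neuronal cell bodies, and with myelinating Schwann cells, which each wrap a single large axon. After nerve injury Schwann cells can turn into repair cells that raise Jun, Gdnf, Shh and other genes. In the ganglion, cells of the Remak kind lie far from the ligature and beside the cell bodies of the injured neurons.

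Scn7a+ cells held less RNA than satellite glia in every library, within a rule that capped both at 8000 UMIs. Their median was 1956 UMIs in CON replicate 1, 4317 in CON replicate 2, 2462 in CCI replicate 1 and 2998 in CCI replicate 2, against medians of 4162, 5556, 4831 and 5404 in the satellite gate, and their summed UMIs without mitochondrial genes were 634659, 179259, 875356 and 909747 in the same order. CON replicate 2 thus held the fewest cells and those with the highest median, and a gene at 0 UMIs there could still stand at up to 16.7 CPM, the level of 3 UMIs. Between 12 and 31 barcode sequences were shared by a pair of libraries, and 0 of them were Scn7a+ in both. The comparison gates held 5892 satellite glia, 2727 myelinating Schwann cells and 1113 endothelial cells, the last kept to show how far RNA shared by all droplets moved. Levels are counts per 1000000 UMIs (CPM) after the 13 mitochondrial genes were removed, and are given in the order CON replicates 1 and 2, then CCI replicates 1 and 2.

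The 5 marker genes of the population were checked first. Scn7a encodes Nax, a sodium channel relative that senses extracellular sodium, and lies on chromosome 2 (chr2:66673426-66784910, RefSeq, GRCm38). As the rule fixed, it stood at 2127, 2672, 1732 and 1833 CPM in Scn7a+ cells. In the satellite gate it stood at 34.3, 11.5, 26.5 and 12.3 CPM, beside its 33.04, 3.12, 24.1 and 14.9 CPM in the endothelial gate. The satellite and endothelial values lay in one range, but both gates admitted only cells with under 2 Scn7a UMIs. Their low Scn7a levels were thus bounded by the gates and are not a finding. Cdh19, a cadherin of neural crest glia on chromosome 1 (chr1:110888002-110977601), was in the rule as well. A Cdh19 UMI was present in 139 of 259, 34 of 46, 178 of 311 and 207 of 289 Scn7a+ cells, since Scn7a alone could meet the limit.

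The other 3 markers were not used by the rule, although they were read from the cells that the rule chose, so their levels are a description with no test. C4b, which encodes complement component 4 and lies on chromosome 17 (chr17:34728139-34743902), was at 351, 552, 639 and 727 CPM in Scn7a+ cells, 67.3, 82.5, 258 and 231 CPM in the satellite gate and 3.88, 4.49, 50.5 and 31.2 CPM in the myelinating gate. Its order was the same in all 4 libraries, with Scn7a+ cells highest and myelinating cells lowest. Mouse C4b has a near-identical neighbour copy, and reads shared with it could be lost in counting. A C4b UMI was found in 44.4, 54.3, 61.7 and 74.4% of Scn7a+ cells, against at most 4.07% of cells of the endothelial gate, whose cells were deeper (medians of 4555 to 4963 UMIs). Most Scn7a+ cells thus held the transcript in both CCI libraries and in CON replicate 2. With each cell thinned to 1500 UMIs the shares were 36.6, 35.7, 50 and 58.4% in Scn7a+ cells and at most 1.36% in the endothelial gate.

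Rxrg encodes a retinoid X receptor and lies on chromosome 1 (chr1:167598362-167639623). It was at 74.1, 134, 109.7 and 236 CPM in Scn7a+ cells, 18.97, 58.8, 38.5 and 59.7 CPM in the satellite gate and 2.91, 8.98, 3.38 and 6.25 CPM in the myelinating gate. Lgi4, a secreted protein of Schwann cells that acts through Adam22 on axonal sorting and myelination, lies on chromosome 7 (chr7:31058909-31070935). It was at 280.5, 463, 351 and 362 CPM in Scn7a+ cells and 154, 329, 194 and 204 CPM in the satellite gate. Scn7a+ cells were thus higher than satellite glia in Rxrg and Lgi4 within every library, by log2 folds of 1.53 (1.12 to 1.90 over the libraries) for Rxrg and 0.75 (0.49 to 0.85 over the libraries) for Lgi4, on CPM + 5. The Rxrg and C4b levels separated Scn7a+ cells from myelinating cells by a wider margin than from satellite glia.

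**Figure D1:**
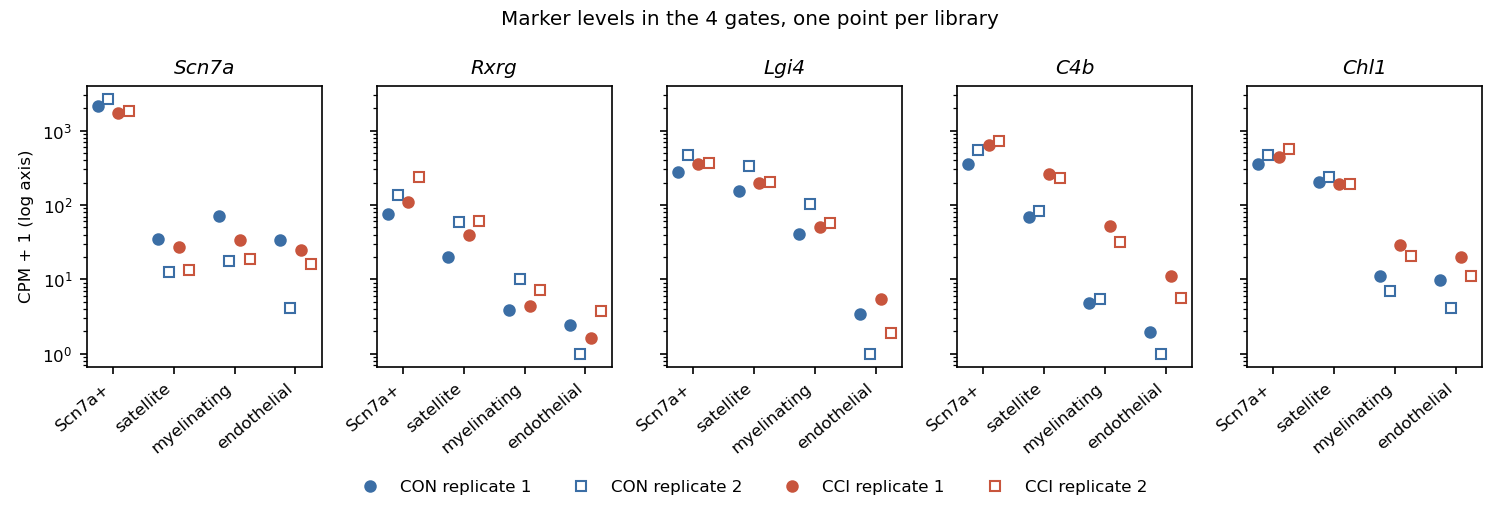
Levels of Scn7a, Rxrg, Lgi4, C4b and Chl1 (CPM + 1, log axis) in the Scn7a+, satellite, myelinating and endothelial gates; each point is 1 library, blue for CON and red for CCI, filled for replicate 1 and open for replicate 2. Scn7a stood highest in Scn7a+ cells because the gates fixed it so. Rxrg, Lgi4, C4b and Chl1 stood highest there in every library, and C4b stood higher in the CCI than in the CON libraries of every gate.

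The label of non-myelinating Schwann-like glia fitted Scn7a+ cells with Cdh19 RNA better than those without. Of the 905 Scn7a+ cells, 558 (61.7%) held Cdh19 RNA and 347 (38.3%) held none. The glial and the neuronal genes named below leaned in opposite directions between these subsets. Since Cdh19 was in the rule, the subsets are a description. Sox10, the transcription factor of neural crest glia, was at 237, 538, 211 and 213 CPM in cells with Cdh19 and at 74.04, 176, 92.2 and 112 CPM in cells without. Chl1, an adhesion molecule of the L1 family, was at 626, 575, 586 and 611 CPM with Cdh19 and 162, 132, 282 and 454 CPM without. Both genes were higher in the subset with Cdh19 in all 4 libraries, and so were C4b, Lgi4 and Rxrg.

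Meg3, Snhg11 and Scn10a leaned the other way, but cells with Cdh19 were not free of neuronal RNA. The 14 genes of a fixed neuron list summed to 18157, 2263, 16573 and 6720 CPM with Cdh19. In all Scn7a+ cells they summed to 19689, 8691, 19582 and 9282 CPM, so that the replicate 1 libraries differed little. Meg3, a long non-coding RNA abundant in neuronal nuclei, was at 341, 411, 373 and 1405 CPM in cells with Cdh19 and at 12153, 220.5, 10677 and 2139.7 CPM in cells without. It was thus over 10000 CPM in the replicate 1 libraries of both groups and lower with than without Cdh19 in 3 of the 4 libraries. Snhg11, another neuronal non-coding RNA, was at 44.4, 29.9, 48.5 and 87.5 CPM with Cdh19 and 4286, 22.05, 3656 and 740.4 CPM without. Scn10a, a sodium channel of nociceptors, was at 92.6, 29.9, 46.4 and 6.14 CPM with Cdh19 and 628, 132, 192 and 34.9 CPM without, higher without it in all 4 libraries. At least 10 Meg3 UMIs were found in 70 Scn7a+ cells, of which 64 held no Cdh19, and these were 40, 0, 18 and 6 cells of the 4 libraries. The sums of the subset without Cdh19 therefore leaned towards neuronal RNA, though not for Meg3 and Snhg11 in CON replicate 2. Cells with at least 10 Meg3 UMIs were 33.3, 0, 13.5 and 7.32% of this subset, which still held Sox10 and Chl1 RNA. The label was thus less certain there, and several results below are also given for cells with Cdh19. The counts of lists and the medians of their CCI differences were computed over all Scn7a+ cells alone.

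**Figure D2:**
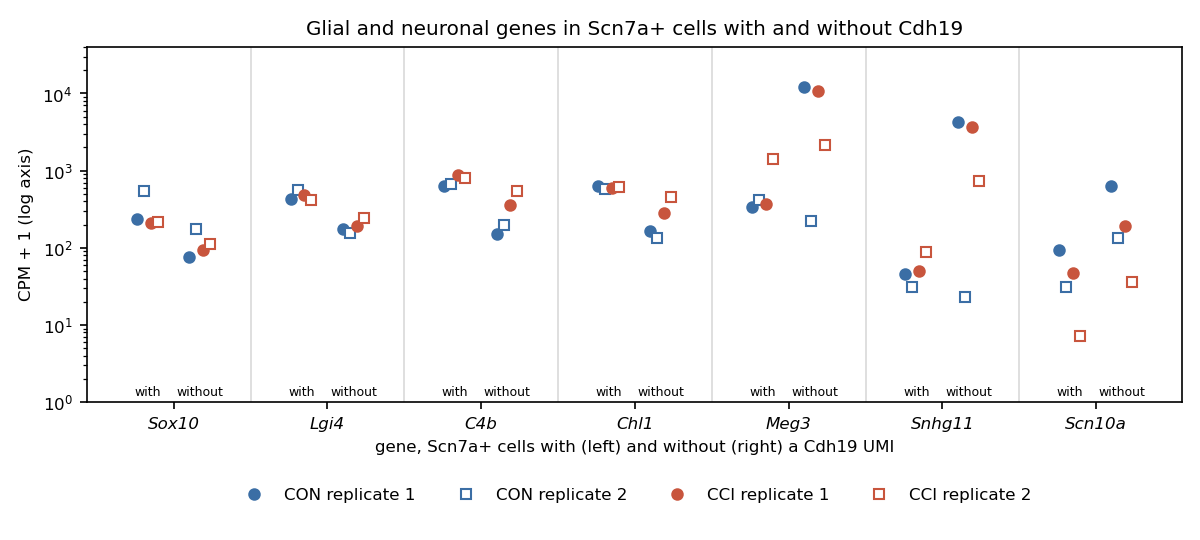
Levels (CPM + 1, log axis) of 4 glial genes (Sox10, Lgi4, C4b, Chl1) and 3 neuronal genes (Meg3, Snhg11, Scn10a) in Scn7a+ cells with a Cdh19 UMI (left of each column) and without (right); points are libraries as coloured in the key. The glial genes stood higher with Cdh19 in all 4 libraries, and Scn10a stood higher without it.

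Cells at the limits of the rule showed the same 2 kinds of RNA. The 198 members with exactly 3 UMIs of Scn7a and Cdh19 together held 50.2 to 129.6 CPM of Sox10 over the libraries, and 374 barcodes just outside, with 2 Scn7a UMIs and no Cdh19, held 26.7 to 57.7 CPM (on all UMIs). Snap25, a presynaptic protein of neurons, was at 491 to 907 CPM just inside and 456 to 879.9 CPM just outside, so that members at this limit held neuronal RNA too. On the Fabp7 side, 219 members with 2 to under 5 Fabp7 UMIs per 10000 held 143 to 418 CPM of Sox10, and 254 barcodes just outside, with 5 to under 10, held 174 to 263 CPM. The 2376 barcodes that the upper limit of 8000 UMIs alone left out held 1.66 to 3.06 CPM of Sox10 and 478 to 604 CPM of Snap25. Their Sox10 level was thus below that of the members at every limit, while their Snap25 level lay near that of members with 3 UMIs of Scn7a and Cdh19. Barcodes with neuronal RNA and little Sox10 thus met the Scn7a limit of the rule too.

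Set against the other glia of the same libraries, Scn7a+ cells were marked by a short list of genes. Among 3838 genes outside the rule with at least 50 CPM in Scn7a+ cells, 28 (0.730%) were at least 4-fold higher than in satellite glia in all 4 libraries and 76 (1.98%) than in myelinating cells. The genes at least 4-fold higher than in both numbered 12 (0.313%), namely Fcgr2b, G0s2, Epb41l4b, Igfbp7, Cxcl1, Rassf4, Emp1, Ntrk3, Adam11, Cadm2, Gfra3 and Aldh1a1. In the other direction 51 of 3325 genes (1.53%) were at least 4-fold lower than in satellite glia, and 75 of 3271 (2.29%) than in myelinating cells. With the cells limited to those with Cdh19, 44 genes were at least 4-fold higher than in satellite glia. These counts carry no test, because the cells were chosen on the same UMIs. Of the 15 genes with the largest folds against both gates, the first 4 were Meg3, Snhg11 and Miat, which are non-coding RNAs, and C78859. Their means in cells with Cdh19 were 633, 52.6, 9.35 and 12.2 CPM, against 3550.2, 1121, 228 and 135 CPM in all Scn7a+ cells.

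Of the other 11 genes, Adam11 and Ntrk3 had a lower mean level in cells with Cdh19 than in all Scn7a+ cells, and the means of the rest were higher. Fcgr2b, the inhibitory receptor for the constant part of IgG, was at 37.8, 61.4, 114 and 159 CPM in Scn7a+ cells and at most 3.59 CPM in either glial gate. Its log2 fold was 3.54 (2.70 to 4.37 over the libraries) against satellite glia. In cells with Cdh19 it was at 74.1, 82.2, 148 and 193 CPM, higher than in all Scn7a+ cells of each library. Macrophages also make Fcgr2b, and the 10 macrophage genes of a fixed list summed to 104, 5.58, 17.1 and 186 CPM in Scn7a+ cells and to 14.8, 7.47, 18.98 and 238 CPM in those with Cdh19, lowest in CON replicate 2 in both. The part of macrophage RNA in the Fcgr2b level was not tested.

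Receptors come next. Gfra3, the receptor for artemin and a known marker of Remak cells as well as of nociceptors, was at 45.7, 89.3, 138 and 117 CPM in Scn7a+ cells and at 3.39, 1.44, 10.9 and 8.19 CPM in satellite glia. In cells with Cdh19 it was at 74.1, 29.9, 181 and 124 CPM, lower than in all Scn7a+ cells in CON replicate 2. Ntrk3, the receptor for neurotrophin 3, was at 468, 206, 233 and 208 CPM in Scn7a+ cells, 193, 224, 192 and 203 CPM in those with Cdh19 and 49.7, 8.61, 26.1 and 15.1 CPM in satellite glia. Both receptors are also made by sensory neurons. Cadm2, a synaptic cell adhesion molecule, was at 227, 307, 118 and 241 CPM in Scn7a+ cells and at most 21.8 CPM in both other gates. No library of Scn7a+ cells overlapped with either glial gate in these 3 genes.

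Secreted and metabolic genes followed. Igfbp7, a secreted insulin-like growth factor binding protein, was at 381, 340.3, 532 and 764 CPM in Scn7a+ cells and 52.3, 57.4, 75.4 and 38.3 CPM in satellite glia. It is also abundant in endothelium, with a mean of 6610.1 CPM in the endothelial gate, while Cldn5 and Flt1, which define that gate, were at 59.9, 0, 19.4 and 26.4 CPM and 64.6, 0, 17.1 and 23.1 CPM in Scn7a+ cells. The part of endothelial RNA in the Igfbp7 level was not tested. Aldh1a1, an enzyme that makes retinoic acid, was at 119.7, 27.9, 38.8 and 36.3 CPM in Scn7a+ cells and at most 3.88 CPM elsewhere among glia, highest in CON replicate 1. Rassf4, a Ras association protein, was at 228, 134, 118 and 135 CPM, and Lgals3, a galectin, at 189, 296, 291 and 595 CPM. Emp1, an epithelial membrane protein, was at 56.7, 106, 111 and 966 CPM, and 1 library, CCI replicate 2, was high. The endothelial gate held Emp1 at 55.4, 71.7, 116 and 748 CPM, with the same library high. Cxcl1, a chemokine for neutrophils, was at 115, 262, 69.7 and 436 CPM, with the replicate 2 library high in both groups.

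**Figure D3:**
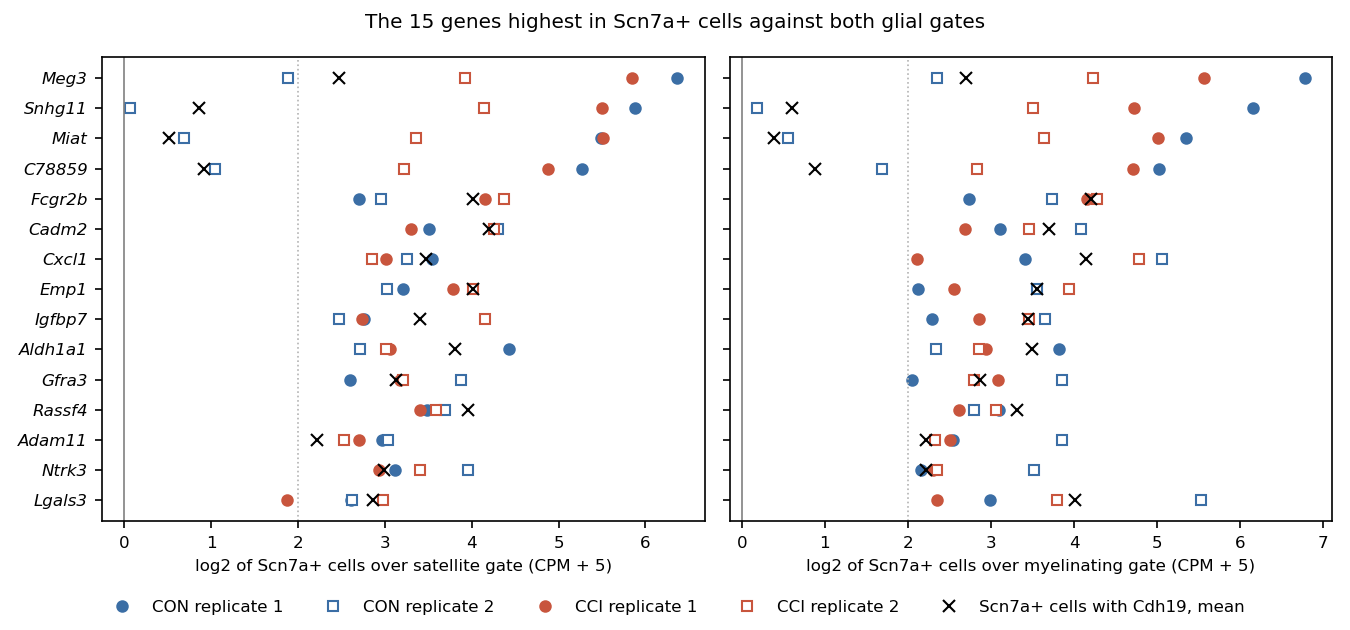
Log2 of the level in Scn7a+ cells over the satellite gate (left) and the myelinating gate (right), on CPM + 5, for the 15 genes with the largest folds against both; points are libraries as in the key, the cross is the mean over libraries for Scn7a+ cells with Cdh19 and the dotted line marks 4-fold. Meg3, Snhg11, Miat and C78859 spread widely between libraries and stood lower in cells with Cdh19, whereas Fcgr2b, Cadm2 and Rassf4 stayed above 4-fold in every library.

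What Scn7a+ cells lacked followed the identity of the other glia. The lowest genes against satellite glia were Bcan, Cnmd, Slc4a4, Fmo1, Gja1, Ctnnd2, Ednrb and 2900052N01Rik. Bcan, the brain proteoglycan brevican, was at 4.73, 0, 21.7 and 8.79 CPM in Scn7a+ cells and 640.2, 627, 538 and 448 CPM in satellite glia, a log2 fold of -5.60 (-6.98 to -4.35 over the libraries). Ednrb, the endothelin receptor B, was at 42.5, 273, 105 and 148 CPM against 909, 2342, 1268 and 1711 CPM. Gja1, which encodes the gap junction protein connexin 43 that couples satellite glia, was at 3.15, 0, 10.3 and 14.3 CPM against 119.9, 125, 114 and 130.3 CPM. Against myelinating cells Fam178b, Slc36a2, Pllp, Ogn, Emid1, Drp2 and Mfap5 were among the lowest. Drp2, which binds periaxin in the Schwann cell membrane, was at 9.45, 5.58, 5.71 and 2.20 CPM in Scn7a+ cells and 661, 444, 442 and 265 CPM in myelinating cells.

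Gene lists were read by how many of their genes stood on one side in all 4 libraries, among genes with at least 50 CPM in 1 of the 3 glial gates. Over all 4502 such genes outside the rule, 36.1% were higher and 24.9% lower in Scn7a+ cells than in satellite glia, and 34.5% were higher and 22.5% lower than in myelinating cells, with median log2 folds of 0.12 and 0.12. Of 9 known genes of non-myelinating Schwann cells, 6 were higher and 2 lower than in satellite glia and 8 were higher and 1 lower than in myelinating cells, with medians of 1.12 and 2.95. Chl1, a close homologue of L1 in cell adhesion, was at 359, 463, 447 and 566 CPM in Scn7a+ cells, 201, 239.7, 193 and 190.1 CPM in satellite glia and 10.2, 5.99, 27.8 and 19.4 CPM in myelinating cells. L1cam, the adhesion molecule that Remak cells and unmyelinated axons share, was at 236, 268, 256 and 257 CPM against 32.5, 45.9, 65.8 and 47.5 CPM in satellite glia, and it varied least of these genes between libraries. Matn2, a matrix protein, was at 473, 1071, 712 and 1133 CPM, higher in the replicate 2 libraries. Ncam1, a textbook marker of Remak cells, went against the list with 208, 530.0, 266 and 364 CPM in Scn7a+ cells and 518, 787, 517 and 517 CPM in satellite glia. Gfap, an intermediate filament of activated glia, was at 4.73, 16.7, 20.6 and 85.7 CPM, and Ngfr, the low-affinity neurotrophin receptor that neurons also make, at 317, 72.5, 141 and 67.1 CPM, higher in the replicate 1 libraries.

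Adhesion molecules and genes of neuregulin and LGI signalling leaned the same way against myelinating cells, whereas basal lamina and integrin genes did not. Of 14 adhesion molecules 10 were higher and 2 lower than in satellite glia, and 10 and 1 against myelinating cells. Of 10 genes of neuregulin and LGI signalling 5 were higher and 1 lower than in satellite glia, and 8 and 1 against myelinating cells. Adam23, a receptor for LGI proteins, was at 351, 374, 329 and 304 CPM in Scn7a+ cells and 50.4, 69.6, 53.8 and 53.7 CPM in satellite glia. Erbb3, the neuregulin receptor through which axons keep Schwann cells alive, was at 143, 301, 165 and 225 CPM in Scn7a+ cells and 161, 273, 163 and 140.1 CPM in satellite glia, and these ranges overlapped. Of 14 channel and pump genes 7 were higher and 6 lower than in satellite glia, a mixed picture. Kcna1, a voltage-gated potassium channel, was at 936, 943, 829 and 1520.2 CPM in Scn7a+ cells, 1060.4, 1079, 824 and 1214 CPM in myelinating cells and 98.9, 174, 106 and 116 CPM in satellite glia, so that it was shared by both kinds of Schwann cell. Of 16 basal lamina and integrin genes 7 were higher and 3 lower than in satellite glia, and 4 and 3 against myelinating cells. Among them Itgb4, a laminin receptor subunit of Schwann cells and perineurium, was at 147, 257, 211 and 255 CPM against 15.1, 61.000, 35.99 and 38.9 CPM in satellite glia.

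Lists of the other glia separated as well. Of 18 cholesterol synthesis genes 0 were higher and 14 lower than in satellite glia, with a median log2 fold of -1.28, and their summed level was 3027, 2839, 3364 and 2430.3 CPM in Scn7a+ cells against 7316, 7994, 7792 and 6803 CPM. Of 10 satellite glia genes 9 were lower than in satellite glia. Apoe, a lipid carrier, was at 5375, 8468, 8509 and 10957 CPM in Scn7a+ cells, 98742, 65951, 86279 and 94479 CPM in satellite glia and 1336, 2074, 771 and 869 CPM in myelinating cells, so that Scn7a+ cells lay between the other gates. Of 13 myelin genes 12 were lower than in myelinating cells. The 8 pan-glial genes split, with 1 higher and 2 lower than in satellite glia. For immune genes, 3 of 4 complement genes were higher than in satellite glia and 3 than in myelinating cells. Among 15 MHC class I and interferon genes, 6 were higher and 2 lower than in satellite glia, with a median log2 fold of -0.00036. That share on the higher side was close to the 36.1% of all genes. Against myelinating cells 13 were higher and 0 lower, with a median of 2.31. H2-D1 and H2-K1, class I heavy chains that share sequence with each other, averaged 1211 and 553 CPM in Scn7a+ cells. Their means were 739 and 562 CPM in satellite glia and 235 and 99.1 CPM in myelinating cells.

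RNA of neurons was plentiful in the gate, and RNA of other cell types was present to an unequal degree. All 14 neuron genes were higher in Scn7a+ cells than in satellite glia in all 4 libraries, with sums of 19689, 8691, 19582 and 9282 CPM against 8258, 1093, 8022 and 4270.2 CPM, and 7215, 1028, 8374 and 5198 CPM in the endothelial gate. In cells with Cdh19 the sum was 18157, 2263, 16573 and 6720.1 CPM. Neuronal RNA therefore stayed above the endothelial gate in cells with Cdh19 in all 4 libraries. In the myelinating gate the sum was 13928, 1381, 11491 and 7708 CPM. This was higher than in cells with Cdh19 in CCI replicate 2 and lower in the other libraries. Neuronal RNA was highest in the replicate 1 libraries of all these gates. Sums for other cell types follow. The 8 endothelial genes summed to 306, 44.6, 161 and 189 CPM in Scn7a+ cells, the 8 mural genes to 119.7, 162, 516 and 159 CPM and the 9 neutrophil and lymphocyte genes to 22.1, 11.2, 47.98 and 118 CPM. The 10 fibroblast genes summed to 839.8, 1819, 988 and 1781 CPM, of which Col3a1, a fibrillar collagen, gave 331, 731, 299 and 734 CPM, and Dcn was bounded by the rule. The 8 perineurial genes summed to 222, 340.3, 291 and 354 CPM and the 5 erythrocyte genes to 176, 50.2, 173 and 200.1 CPM. The part of these RNAs in the levels above was not tested.

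The immediate early genes, but not the heat shock genes, divided the libraries by replicate number and not by group. The 21 immediate early genes summed to 10500.1, 53810.4, 13218 and 49917 CPM in Scn7a+ cells, so that both replicate 2 libraries stood above both replicate 1 libraries. In cells with Cdh19 the sum was 17628, 70726, 17111 and 55536 CPM, in the same order of replicates. Satellite glia (4080, 10837, 4251 and 23591 CPM) and myelinating cells (16346, 34024, 16394 and 20643 CPM) shared this order. The endothelial gate did not, at 29786, 19524, 22336 and 25987 CPM. Of 20 such genes 18 were higher than in satellite glia in all 4 libraries, and 4 were higher than in myelinating cells. Fos was at 1966, 13739.9, 2649 and 12317 CPM, Egr1 at 635, 4904, 703 and 2519 CPM and Atf3 at 652, 3866, 1121 and 5087 CPM in Scn7a+ cells, all of them genes that rise within minutes to hours of a stimulus, tissue dissociation included. Atf3 is also the transcription factor that injured neurons raise, and its CON and CCI values overlapped here. The 11 heat shock genes summed to 11940.3, 24568, 14858 and 10646 CPM, with CON replicate 2 the highest and CCI replicate 2 the lowest, and to 14464, 28977, 16590.2 and 10234 CPM in cells with Cdh19. Hspa1a, an inducible chaperone with a near-identical copy in Hspa1b, was at 1227, 5696, 2274 and 1526 CPM. For the immediate early genes the group means differed by less than the spread within a group, at 32155 ± 30625 CPM for CON against 31567 ± 25951 CPM for CCI (SD, n = 2).

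**Figure D4:**
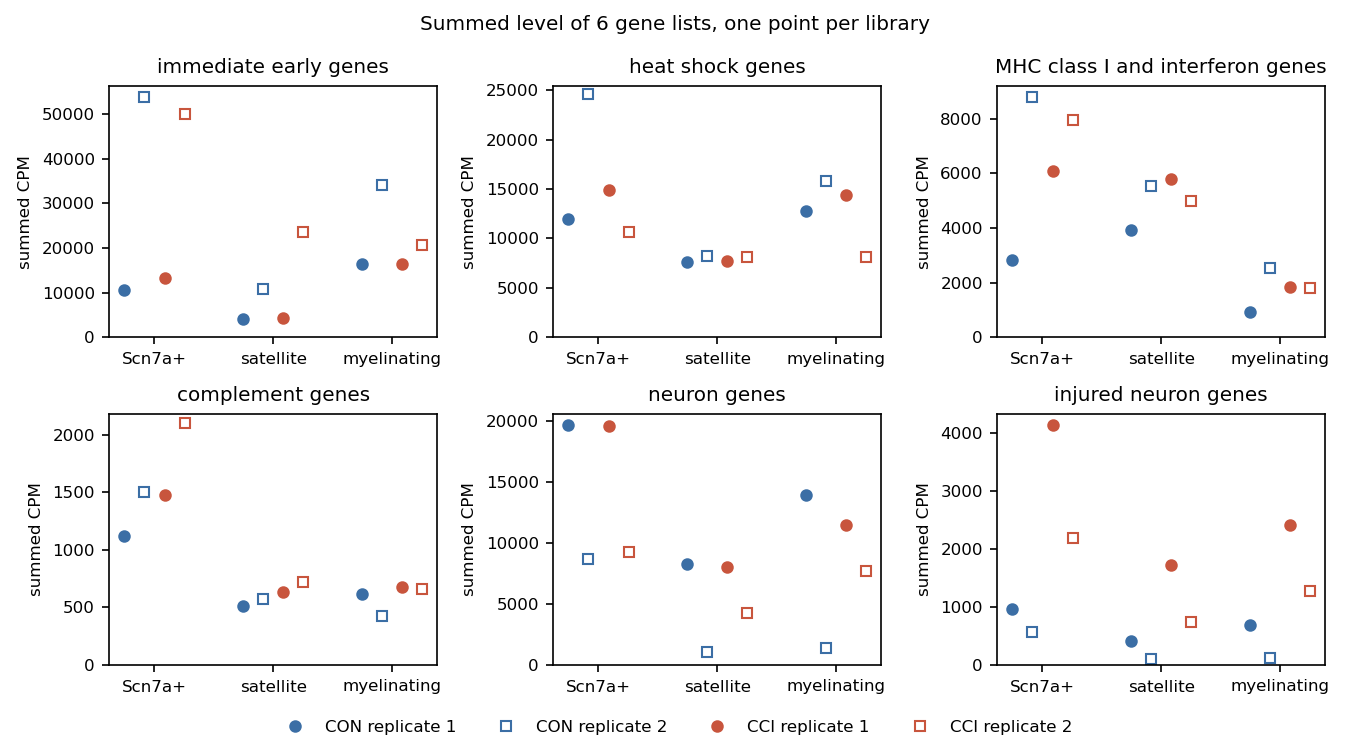
Summed level (CPM) of 6 gene lists in the Scn7a+, satellite and myelinating gates; each point is 1 library, blue for CON and red for CCI, filled for replicate 1 and open for replicate 2. In Scn7a+ cells the immediate early genes stood at 10500.1 and 13218 CPM in the replicate 1 libraries and at 53810.4 and 49917 CPM in the replicate 2 libraries, whereas the injured neuron genes stood higher in both CCI libraries in all 3 gates.

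Scn7a+ cells made up a somewhat larger share of the CCI libraries, within the limits of 2 libraries a group. Their share of kept barcodes was 2.41% (exact 95% binomial interval 2.13 to 2.72%) and 1.76% (exact 95% binomial interval 1.29 to 2.34%) in CON and 2.79% (exact 95% binomial interval 2.49 to 3.11%) and 2.73% (exact 95% binomial interval 2.42 to 3.05%) in CCI. The intervals cover counting error only. The groups did not overlap, at 2.09 ± 0.460% and 2.76 ± 0.0439% (SD, n = 2), but an exact 2-sided permutation test of 2 against 2 libraries cannot give a p below 0.333, so no test is given. With the limit on total UMIs raised to 20000 the groups overlapped, at 3.43 and 2.30% in CON against 3.66 and 3.12% in CCI. As a share of the 3 glial gates the means were 8.51 ± 1.19% and 10.7 ± 1.14%, and these libraries did not overlap either, although CON replicate 2 and CCI replicate 1 were close at 9.35% and 9.89%. Scn7a+ cells with Cdh19 made up 1.30 ± 0.00518% and 1.77 ± 0.252% of kept barcodes. The gate counts UMIs, so that the share also moves with depth, and the Scn7a+ cells of CON replicate 1 had the lowest median. The part of depth was not tested.

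The comparison of CCI with CON asked how these glia differed 3 d after injury of the nerve. Levels between the groups, here and in the following, are TMM-scaled CPM of the UMIs summed over Scn7a+ cells of a library. The test is the quasi-likelihood test of edgeR with Benjamini-Hochberg adjustment over 8957 genes. Of these, the 8952 genes outside the rule are counted here. The test called 0 genes higher and 0 lower (percent called 0 in each direction), with 249 genes (2.78%) at an unadjusted p under 0.05, and DESeq2 called 6 genes (0.0368%). The groups did not overlap for 1472 genes that were higher in CCI (16.4%) and 1326 that were lower (14.8%). In simulated data with the depths of these libraries and a dispersion of 0.1, the edgeR test recovered 24% of 4-fold changes and 0% of 2-fold changes. The dispersion of the real data was higher, with a square root (biological coefficient of variation) of 0.361, so recovery there may be lower. Genes were named from the smallest p in each direction, and none of their differences passed the threshold.

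The 5 genes with the smallest p on the higher side were genes that injured sensory neurons make. Sprr1a, a cornified envelope protein that injured neurons induce, was at 1.56 and 5.55 CPM in CON against 184 and 197 in CCI. The CON values rested on 2 UMIs, and the ratio of pooled CPM was 72.7-fold (exact 95% interval 19.97 to 603, counting error only), with an edgeR adjusted p of 0.206. Gal, which encodes the neuropeptide galanin, was at 20.3 and 5.55 CPM in CON against 985 and 604 in CCI, a log2 fold change of 5.67 ± 0.65 (SE) with an edgeR adjusted p of 0.206. Npy, neuropeptide Y, had 0 UMIs in both CON libraries and was at 119.8 and 161 in the CCI libraries, at least 35.6-fold higher when 3 UMIs over the CON group are taken as the floor. Nts, neurotensin, rested on 3 UMIs in CON and was at 188 and 116 in the CCI libraries, a ratio of 39.2-fold (exact 95% interval 13.3 to 191, counting error only). These peptides are made by neurons. Gadd45a, a DNA damage-inducible gene, was at 37.5 and 44.4 CPM in CON against 306 and 406 in CCI, a log2 fold change of 3.14 ± 0.44. No CCI library overlapped with CON in these 5 genes, and DESeq2 called all of them.

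The same genes were higher in CCI in the other gates too, the endothelial gate included. In the endothelial gate Sprr1a was at 0 and 0 CPM in CON against 61.4 and 75.5 in CCI, and Gal at 12.96 and 0 CPM in CON against 454 and 202 in CCI. In the satellite gate Gal was at 11.8 and 4.64 CPM in CON against 409 and 156 in CCI, and in the myelinating gate at 21.9 and 5.95 CPM in CON against 604 and 250.2 in CCI. For all 5 genes the level in Scn7a+ cells was above that of the endothelial gate in both CCI libraries. In CCI replicate 2 the levels of Gal and Sprr1a were higher in cells without Cdh19 than in cells with it. Gal was at 1357 CPM without Cdh19 against 207 CPM with it, and Sprr1a at 364 against 98.2 CPM. Gal with Cdh19 was thus at about the endothelial level in that library, while in CCI replicate 1 it was at 896 CPM with Cdh19 and 1092 CPM without (plain CPM). For these 5 genes, the part from RNA shared by all droplets, from neuronal barcodes inside the gate and from the glia themselves was not tested. When barcodes with at least 10 Meg3 UMIs were left out, edgeR called 3 genes, Sprr1a, Npy and Gal, and among cells with Cdh19 it called 0 of 6176, with 125 at an unadjusted p under 0.05; DESeq2 was not run on these subsets.

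On the lower side the smallest p belonged to Bc1, Comp, Dpp10, Tmem178b and Gabbr2. Bc1, a short non-coding RNA of neurons with many related copies in rodent genomes, was at 477 and 139 CPM in CON against 21.7 and 24.9 in CCI, a log2 fold change of -3.75 ± 0.66 with an edgeR adjusted p of 0.983. Its CON libraries differed more than 3-fold from each other, and it was lower in CCI in the endothelial gate too, at 177 and 71.9 CPM in CON against 9.40 and 12.6 in CCI. Comp, a cartilage matrix protein, was at 28.1 and 22.2 CPM in CON against 2.28 and 1.25 in CCI, where CCI rested on 3 UMIs and CON was higher by a ratio of 16.1-fold (exact 95% interval 4.83 to 83.9, counting error only). Dpp10, which modulates potassium channels of the Kv4 class, was at 67.2 and 55.5 CPM in CON against 14.8 and 8.72 in CCI, a log2 fold change of -2.38 ± 0.49. Tmem178b, a transmembrane protein, was at 70.3 and 49.97 CPM in CON against 14.8 and 12.5 in CCI, and Gabbr2, a subunit of the GABA-B receptor, at 92.2 and 77.7 CPM in CON against 30.8 and 23.7 in CCI. All 5 were lower in both CCI libraries than in both CON libraries of Scn7a+ cells. In the satellite, myelinating and endothelial gates the log2 fold change of Dpp10 was -1.51, -1.25 and -1.10. It was -0.62, -0.64 and -0.54 for Tmem178b and -0.69, -0.87 and -0.05 for Gabbr2, in the same order of gates. The standard errors of these values ran from 0.57 to 1.08. The part of RNA shared between gates was not tested.

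None of the marker genes outside the rule passed the test. C4b was at 349 and 549.7 CPM in CON against 638 and 824 in CCI, a log2 fold change of 0.71 ± 0.44 with no overlap of the groups, and of 0.42 in cells with Cdh19. The same gene was at 67.99 and 76.2 CPM in CON against 255 and 252 in CCI in satellite glia and at 3.90 and 4.46 CPM in CON against 52.02 and 31.4 in CCI in myelinating cells. Its CON level was thus already higher in Scn7a+ cells than the CCI level of satellite glia, and its log2 fold change was smaller in value. The CCI effect in Scn7a+ cells minus that in satellite glia was -1.08 ± 0.31 on the log2 scale (edgeR adjusted p = 0.993), and minus that in myelinating cells -2.56 ± 0.50 (edgeR adjusted p = 0.934), and neither passed the threshold. Rxrg was at 73.5 and 133 CPM in CON against 109.5 and 268 in CCI, with a log2 fold change of 0.91 ± 0.56, and these groups overlapped. Lgi4 was at 278 and 461 CPM in CON against 350.2 and 410.0 in CCI, with a log2 fold change of 0.05 ± 0.43 whose sign turned under 6 of 16 alternatives.

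Among genes that set Scn7a+ cells apart, Fcgr2b was at 37.5 and 61.1 CPM in CON against 114 and 181 in CCI, a log2 fold change of 1.65 ± 0.47 (edgeR adjusted p = 0.983) that kept its direction and missed the threshold under all 16 alternatives. In satellite glia it was low in both groups, at 1.60 and 3.31 CPM in CON against 1.67 and 3.24 in CCI. The satellite sum of CON replicate 2 was the smallest, at 1393436 UMIs, so only its value rested on a few UMIs. Gfra3 was at 45.3 and 88.8 CPM in CON against 138 and 132 in CCI, a log2 fold change of 1.09 ± 0.46 (1.505 in cells with Cdh19), and it was higher in CCI in the endothelial gate as well, by 2.05 ± 0.65. Igfbp7 was at 378 and 339 CPM in CON against 532 and 866 in CCI, a log2 fold change of 0.96 ± 0.44 (0.58 in cells with Cdh19). Fcgr2b, Gfra3 and Igfbp7 did not overlap between the groups, which holds for 16.4% of all genes in this direction. Of the complement regulators, Serping1, the C1 inhibitor, was at 102 and 149.9 CPM in CON against 178 and 297 in CCI, a log2 fold change of 0.94 ± 0.45. Cd55, which breaks up complement convertases and also marks non-peptidergic nociceptors, was at 188 and 122 CPM in CON against 90.1 and 24.9 in CCI, a log2 fold change of -1.45 ± 0.63.

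**Figure D5:**
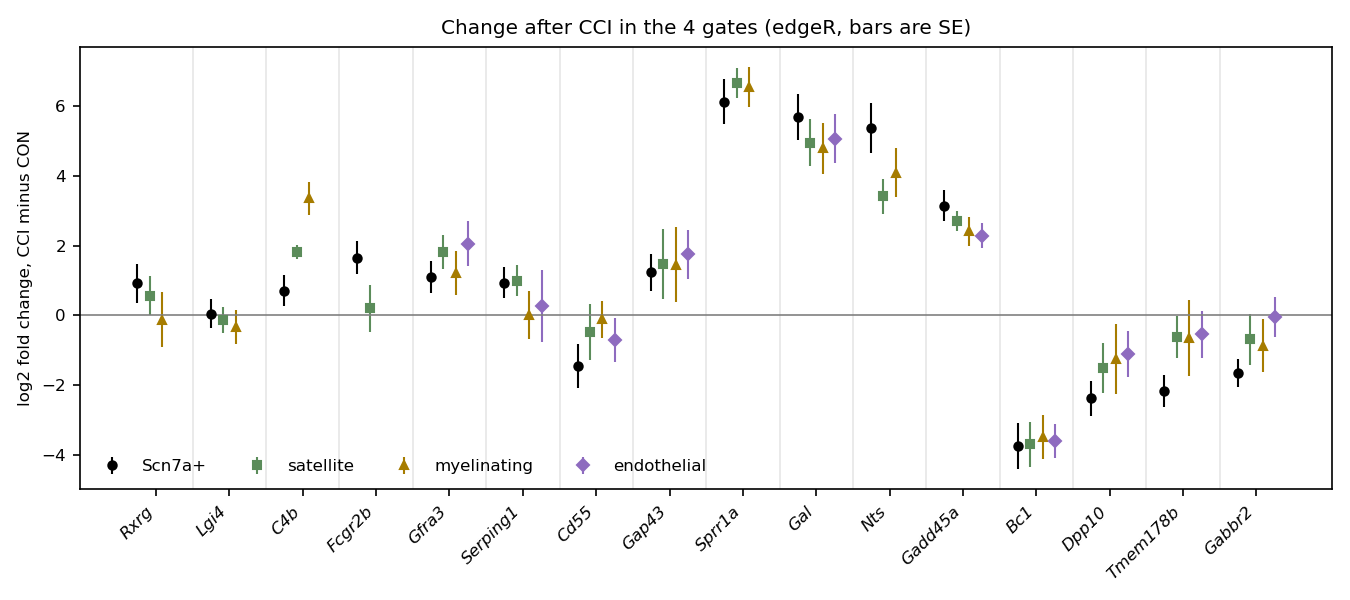
Log2 fold change of CCI over CON (edgeR, bars are the standard error) in the Scn7a+, satellite, myelinating and endothelial gates for the markers and for genes named in the text; genes with too few UMIs in a gate, and endothelial values of genes at 0 in both CON libraries, are left out. Sprr1a, Gal, Nts, Gadd45a and Bc1 lay far from 0 on the same side in every gate plotted, C4b was larger in satellite and myelinating cells, and the CON levels of Sprr1a and Nts in Scn7a+ cells rest on 2 and 3 UMIs.

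The lists gave no gene past the edgeR threshold, so they are described by their medians and by the genes whose groups did not overlap, which were 16.4% of all genes on the higher side and 14.8% on the lower. Over all 8952 genes the median log2 fold change was 0.01, with 4510 genes above 0. Of 12 tested injured neuron genes, 12 had a log2 fold change above 0, with a median of 1.63, and 9 were higher and 0 lower with no overlap. The median of this list was 2.54 in satellite glia, 2.57 in myelinating cells and 3.02 in the endothelial gate, all of them above the 1.63 of Scn7a+ cells, which stays the same with Npy at its bound. Gap43, a growth cone protein of neurons that repair Schwann cells also make, was at 288 and 128 CPM in CON against 633 and 368 in CCI, a log2 fold change of 1.24 ± 0.53. Serpinb1a, a protease inhibitor, was at 128 and 27.8 CPM in CON against 719.9 and 305 in CCI, a log2 fold change of 2.61 ± 0.74. Both genes differed more than 2-fold between the CON libraries.

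Genes of the repair Schwann cell held values on both sides of 0. For this list, the non-myelinating list and the MHC list, the share with no overlap on the higher side was close to the 16.4% of all genes. Of 11 tested repair Schwann genes, 7 had a log2 fold change above 0, with a median of 0.27, and 2 were higher and 0 lower with no overlap. Jun, the transcription factor that leads the repair program, was at 1749 and 7679 CPM in CON against 2231 and 6555 in CCI, with the replicate 2 libraries high in both groups. Of 10 tested non-myelinating Schwann markers, 6 had a log2 fold change above 0, with a median of 0.26, and 2 were higher and 1 lower with no overlap. Of 6 tested myelin genes, 6 had a log2 fold change above 0, with a median of 0.71, and 2 were higher and 0 lower with no overlap. The myelin list had medians of 0.33 in satellite glia, 0.28 in myelinating cells and 0.67 in the endothelial gate, the last close to that of Scn7a+ cells. Of 9 tested complement genes, 8 had a log2 fold change above 0, with a median of 0.63, and 3 were higher and 1 lower with no overlap. Of 16 tested genes of MHC class I and interferon, 12 had a log2 fold change above 0, with a median of 0.30, and 3 were higher and 0 lower with no overlap. The list of heat shock genes leaned the other way, since 2 of 11 were above 0 and the median was -0.45, and CON replicate 2 held its highest sum. For the other lists the medians lay between -0.37 for adhesion molecules and 0.49 for chemokines and cytokines among glial and signalling lists, with 0 genes called in each by edgeR. Of 3 tested cell cycle genes 1 was above 0, and most of the 16 genes on that list had too few UMIs to be tested.

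Whether the CCI effect differed between Scn7a+ cells and the other glia was tested directly, with the library as a block. edgeR called 0 of 10763 genes for the difference from satellite glia (0 higher, 0 lower), with 396 (3.68%) at an unadjusted p under 0.05, and 0 of 9962 for the difference from myelinating cells, with 298 (2.99%) at that level. DESeq2 called 0 genes in both. In simulated data with a dispersion of 0.1 this test recovered 10% and 6% of 4-fold differences. More genes were called when a CON library was left out, at 147 and 115 genes without CON replicate 1 and 122 and 53 without CON replicate 2, where 1 CON library stood for its group and was assumed to vary like the others. Among cells with Cdh19, edgeR called 2 genes for a higher CCI effect than in satellite glia, H2-Ab1 and Cd74, which antigen-presenting cells make for MHC class II. H2-Ab1 was at 0, 14.9, 25.3 and 47.6 CPM in cells with Cdh19 and 16.9, 66.02, 4.09 and 9.25 CPM in satellite glia, and Cd74 at 0, 0, 4.22 and 85.9 CPM and 37.5, 177, 4.80 and 23.4 CPM. The macrophage sum in cells with Cdh19 was highest in CCI replicate 2 as well, at 238 CPM, and its part in these values was not tested. Within the 3 comparison gates taken alone, CCI against CON gave 0 genes in satellite glia, 0 in myelinating cells and 3 in the endothelial gate by edgeR, with 306, 174 and 363 genes at an unadjusted p under 0.05.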

How the data were processed

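Single cells of mouse L4-5 DRGs were measured in 4 libraries, 2 CON and 2 CCI. Per the labels and the methods of the study, reads were cleaned with fastp and the deposited counts, whole UMIs per gene and barcode of filtered 10x matrices, were made with Cell Ranger 5.0.1 against mm10; the submitters' processing notes also name CASAVA 1.8 and Seurat. Filtering and reads in introns can move RNA shared by droplets and neuronal RNA into small barcodes. Gene positions were from RefSeq (GRCm38.p6), and 10 of 10 named symbols matched. No doublet caller was run, and 0 columns of other samples were met.

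UMIs were filtered and gated as stated in the report. The other gates shared the barcode filter, the limits on Dcn and total UMIs, and a limit of under 2 Scn7a UMIs: satellite glia held at least 3 Fabp7 UMIs and at least 5 per 10000, myelinating cells at least 3 UMIs of Prx, Ncmap and Cldn19, and endothelial cells at least 3 of Cldn5 and Flt1. The 13 mitochondrial genes were removed from the 31253 of the table, and UMIs were summed per library and gate. The 7 genes of the rule were left out of the counts of genes tested and called, but not of the fit and the adjustment. CCI was tested against CON with edgeR 4.0.16 (R 4.3.3; filterByExpr, TMM, glmQLFit and glmQLFTest, adjusted p under 0.05), and the difference in effect between gates in one model with the library as a block. DESeq2 1.42.0, upper-quartile factors, no filter, each library left out, other gate limits and thinning to 1500 UMIs were tried. Profiles against the other glia used CPM + 5 within each library and no test. The scripts were tested on simulated data.

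The cells, the gene lists and the rule for named genes were chosen with earlier results of these data known. Genes named were the markers, the 15 highest and 8 lowest of each profile, those with the smallest p (5 in each direction) and up to 4 of each list by level, of which some are not reported here. Sox10, Gfap, L1cam, Egr1, Scn10a, Snap25, and for CCI Fcgr2b, Gfra3, Igfbp7, Gap43, Serpinb1a, Serping1, Cd55, H2-Ab1 and Cd74, were chosen after their values were seen, as were the cells with Cdh19 and those under 10 Meg3 UMIs as subsets.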

Additional observations from a re-analysis of the deposited data

How the results depend on the processing

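With 2 libraries a group and 46 cells in CON replicate 2, depth and the number of libraries limit every CCI comparison. The count of genes called between CCI and CON by edgeR in Scn7a+ cells was 0, and it was 6 with DESeq2, 48 with no filter on low counts, 14 with the replicate number as a block (replicate block), 6 to 15 with 1 library left out (12 without CON replicate 1, 15 without CON replicate 2, 8 without CCI replicate 1 and 6 without CCI replicate 2) and 3 in cells under 10 Meg3 UMIs. Deviations of same-numbered libraries correlated at 0.488, but with 2 pairs and no label that says what a number marks, a pairing was not taken as shown. The replicate block called 0 genes for both differences from other glia. For the difference from satellite glia the count was 22 with no filter, 0 to 147 with 1 library left out and 2 in cells with Cdh19. For the difference from myelinating cells it was 21 with no filter, 1 to 115 with 1 library left out, 2 with the stricter gate (at least 3 Scn7a UMIs and 5 with Cdh19) and 1 after thinning. The cause of these differences was not tested.

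At 2-fold in place of 4-fold, 280 genes were higher and 181 lower than in satellite glia, and 223 and 195 than in myelinating cells. The count higher than in satellite glia was 43 with the stricter gate and 44 in cells with Cdh19. With up to 20000 UMIs a cell it was 113, with 92 lower, and 34 were higher than in myelinating cells. The mean share of kept barcodes in CON and CCI was 1.34 and 1.69% with the stricter gate, 2.86 and 3.39% with up to 20000 UMIs and 1.30 and 1.77% with Cdh19, and as a share of glia 8.51 and 10.7%. In CCI it was also 2.91% with the looser gate (1 Scn7a UMI), 3.25% with stricter barcodes, 2.49% with the purer gate and 2.62% under 10 Meg3 UMIs. The log2 fold change of Lgi4 turned to -0.27 without CON replicate 1 (-0.27 to 0.47 with 1 library left out) and -0.05 without CCI replicate 2, and it was -0.087 with the stricter gate, -0.073 after thinning, -0.10 with Cdh19 and -0.19 under 10 Meg3 UMIs. None of the other genes whose log2 fold change or ratio is given changed direction under the alternatives run. Settings on Cdh19 and Meg3 were chosen after seeing the data.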
